A study of Mus musculus with 16 samples.

Results

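The report is about 6 genes that encode metabotropic glutamate receptors, Grm2, Grm3, Grm4, Grm5, Grm7 and Grm8, out of 37583 genes listed in each count file. The genes were chosen by symbol alone, and all 6 passed the filter on low counts in every comparison below. Their messenger RNA was counted in 16 brain libraries from 8 C57BL/6J mice, with 1 cortex and 1 cerebellum library from each mouse. There were 4 wild-type mice and 4 mice labelled as carrying the A391T (also written A393T) change in Slc39a8, which encodes a metal ion transporter of the cell membrane, and each group of 4 libraries was therefore 1 genotype in 1 region. The labels give neither age, sex, zygosity nor treatment. The methods of the study describe its wild-type mice as 12 weeks old, the wild-type mice sequenced as male, and the cortex as frontal cortex removed by blunt dissection.

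Metabotropic glutamate receptors are G protein-coupled receptors that answer to glutamate more slowly than the ion channel receptors do. Group I receptors, to which Grm5 belongs, couple to Gq and phospholipase C and lie mainly at the rim of the postsynaptic membrane. Group II (Grm2 and Grm3) and group III (Grm4, Grm6, Grm7 and Grm8) couple to Gi and Go proteins, lower cyclic AMP, and in many synapses restrain transmitter release; Grm3 is also found in astrocytes. Grm4 is known as the group III receptor of the parallel fibre terminals of cerebellar granule cells.

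The labelled tissues carried their markers. Of 7 cortical projection neuron markers, 7 were lower in wild-type cerebellum, and 6 of 6 granule cell and 6 of 6 Purkinje cell markers were higher there. The summed level of the granule cell markers was 8.39 to 10.2 TPM in wild-type cortex and 2146 to 2327 TPM in wild-type cerebellum, where TPM is the length-corrected count of a gene, rescaled so that each library has an equal sum. Between 20813432 and 30497206 reads fell on genes in each library. Slc39a8 stood at 1.63 to 3.16 TPM in the 8 wild-type and 1.98 to 2.79 TPM in the 8 A391T libraries, and since A391T is a change of 1 residue this level does not check the genotype.

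Some libraries stood apart. In the deposited table of normalized values, 8 of 16 columns carried the values of a differently named library: the libraries of wild-type mice 1 and 2 appeared there under the names of A391T mice 3 and 4, and the reverse, in both regions. Libraries are named here as in the count files, and the genotype results are also given with the names of the table and with the 4 mice whose names matched. Every column kept its region, but the region comparisons within a genotype then hold other libraries. With the names of the table Grm5 was at -3.71 in wild-type and -4.69 in A391T mice (log2, cerebellum over cortex), in place of -4.06 and -4.19, and 6 of 6 receptors were called in each genotype. With the matching mice alone these values were -3.74 and -4.91, and Grm2 was not called in wild-type mice (-0.97). The cerebellum library of A391T mouse 1 had the lowest level of 6 of 6 granule cell markers among 8 cerebellum libraries (summed 1657 TPM, against 2105 to 2337 TPM in the others), 5 of 7 astrocyte, 4 of 6 cerebellar interneuron and 3 of 6 Purkinje cell markers. It was the highest of 8 for 2 of 6 Purkinje cell markers and for 1 of 6 cerebellar interneuron markers, Pvalb, a gene of molecular layer interneurons and Purkinje cells, at 4418 TPM against 1545 to 1871 TPM. This library also stood apart over all genes. Its counts differed more from the rest of its group (chi-square per degree of freedom 62.3 to 74.5) than those libraries differed among themselves (7.23 to 8.13). Its shares of reads on no gene (10.2%) and of reads not uniquely aligned (8.41%) were the lowest of the 16 libraries. The cortex library of wild-type mouse 4 was the lowest of 8 cortex libraries for 4 of 7 cortical projection neuron markers, the highest for 4 of 4 blood markers (summed 366 TPM, against 240 to 293 TPM), the highest for 3 and the lowest for 3 of 6 cortical interneuron markers (summed 2739 TPM, against 1921 to 2111 TPM), and the lowest for 5 of 6 receptors, all but Grm4. The part of these markers in the receptor levels was not tested.

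The first question was how the levels of the 6 receptors differ between the cortex and the cerebellum. In wild-type mice 5 of 6 genes were at least 2-fold lower in the cerebellum, with Grm5 16.7-fold lower, and Grm4 alone was higher, by 16.8-fold. By the quasi-likelihood test of edgeR (Benjamini-Hochberg adjusted p under 0.05 and at least a 2-fold change), 14.2% of 16040 genes tested were lower and 10.5% were higher in the cerebellum, so that a call in either direction was common among all genes. In A391T mice the same 5 genes were lower and Grm4 was higher, against 14.9% and 9.8% of 16005 genes tested. The 2 comparisons share no library.

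**Figure D1:**
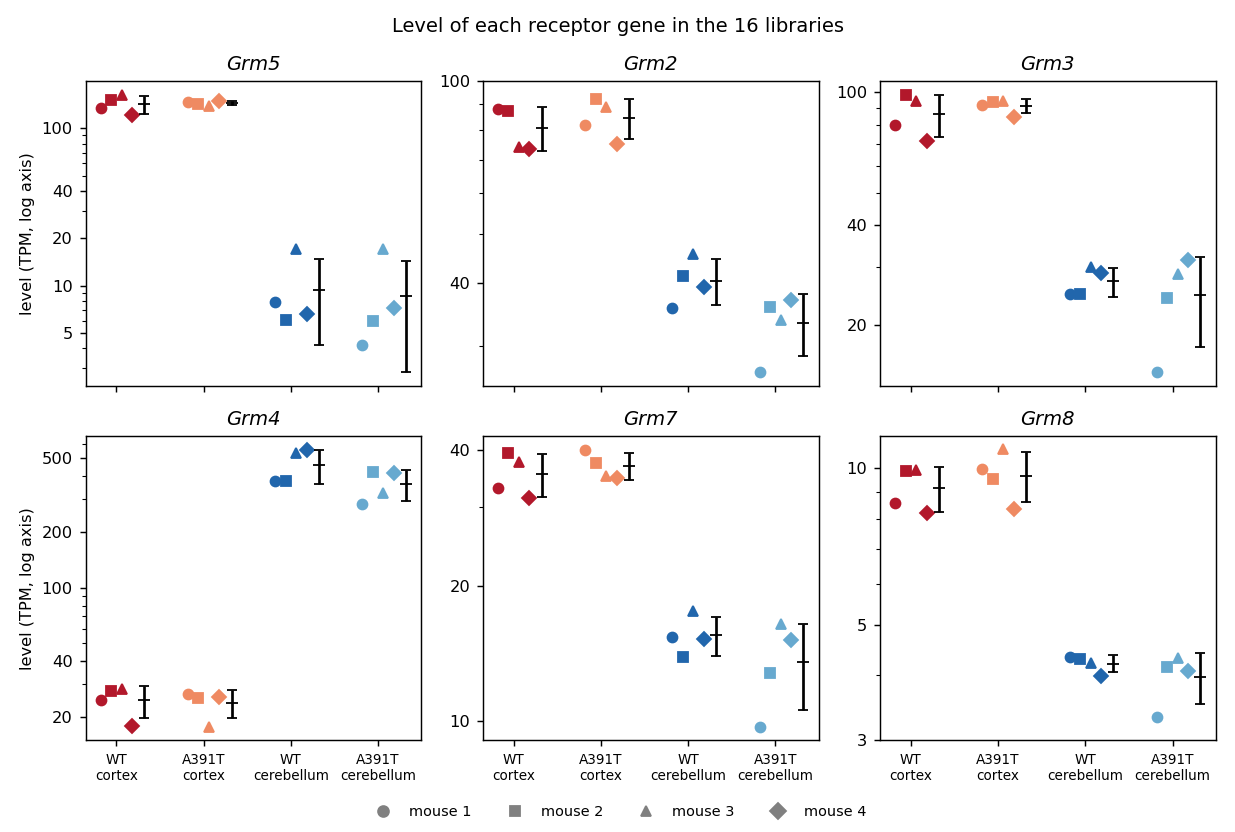
Level of each receptor gene in TPM (log axis) in the 16 libraries, 1 panel a gene, with a symbol for each mouse (mice of the same number in the 2 genotypes are different animals) and the mean ± SD of 4 libraries beside them. The cortex and cerebellum libraries did not overlap for any of the 6 genes, Grm4 was the gene that was higher in the cerebellum, and Grm5 was at 17.2 and 17.1 TPM in the cerebellum of mouse 3 of either genotype against 4.21 to 7.90 TPM in the other 6 cerebellum libraries.

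Grm5, the Gq-coupled receptor, lies on chromosome 7 (NCBIM37, chr7:94750952-95283417, plus strand). In the cortex of wild-type mice 1 to 4 it stood at 134, 150, 163 and 121 TPM, and in the cerebellum of the same mice at 7.90, 6.07, 17.2 and 6.62 TPM. In A391T mice the values were 148, 143, 139 and 148 TPM in the cortex and 4.21, 5.98, 17.1 and 7.23 TPM in the cerebellum. The regions were far apart in every mouse, and mouse 3 of either genotype had the highest cerebellum value. The log2 fold change, cerebellum over cortex, was -4.06 (SE 0.28, 95% interval -4.68 to -3.44, edgeR adjusted p = 2.0e-07) in wild-type and -4.19 (SE 0.36, edgeR adjusted p = 3.9e-06) in A391T mice. Without the cerebellum library of mouse 3 it was -4.53 in wild-type and -4.74 in A391T mice.

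Both cerebellum libraries with high Grm5 also differed from the other 6 in genes of other cells. Slc17a6, the vesicular glutamate transporter of many subcortical neurons, stood at 47.9 TPM (wild-type mouse 3) and 70.7 TPM (A391T mouse 3), against 14.5 to 26.5 TPM in the other 6 cerebellum libraries. Sst, which encodes somatostatin, stood at 106 and 143 TPM against 15.6 to 34.9 TPM, Vip, which encodes vasoactive intestinal peptide, at 4.77 and 5.82 TPM against 0 to 0.426 TPM, and Drd2, a dopamine receptor gene, at 10.7 and 10.3 TPM against 1.13 to 2.74 TPM. These 4 genes were chosen after their values were seen. Of 6 cortical interneuron markers, which include Sst and Vip, 3 were higher in both libraries than in any other cerebellum library. The summed level of the 6 was 337 and 356 TPM against 188 to 232 TPM. This count and sum in part repeat genes chosen after their values were seen, and much of the gap in the sum lay in Sst. Of 7 cortical projection neuron markers, 1 was higher in both than in the other 6, with a summed level of 45.1 TPM in wild-type mouse 3, the highest of 8, and 42.0 TPM in A391T mouse 3, against 31.8 to 42.3 TPM. Tbr1, one of these 7, was at 0.690 and 0.634 TPM in these libraries and 0.540 to 0.894 TPM in the other 6, against 112 to 130 TPM in the cortex. Of 7 striatal markers, Drd2 alone was higher in both, and their summed levels of 548 and 518 TPM lay beside 527 to 641 TPM in the other 6. The 5 choroid plexus markers summed to 52.3 TPM in wild-type mouse 3 and 3296 TPM in A391T mouse 3, against 50.7 TPM in A391T mouse 4 and 2390 to 8081 TPM in the other 5. The part of these genes in the Grm5 level was not tested. In bulk tissue, fewer cells of a type and less RNA in each cell cannot be told apart.

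**Figure D2:**
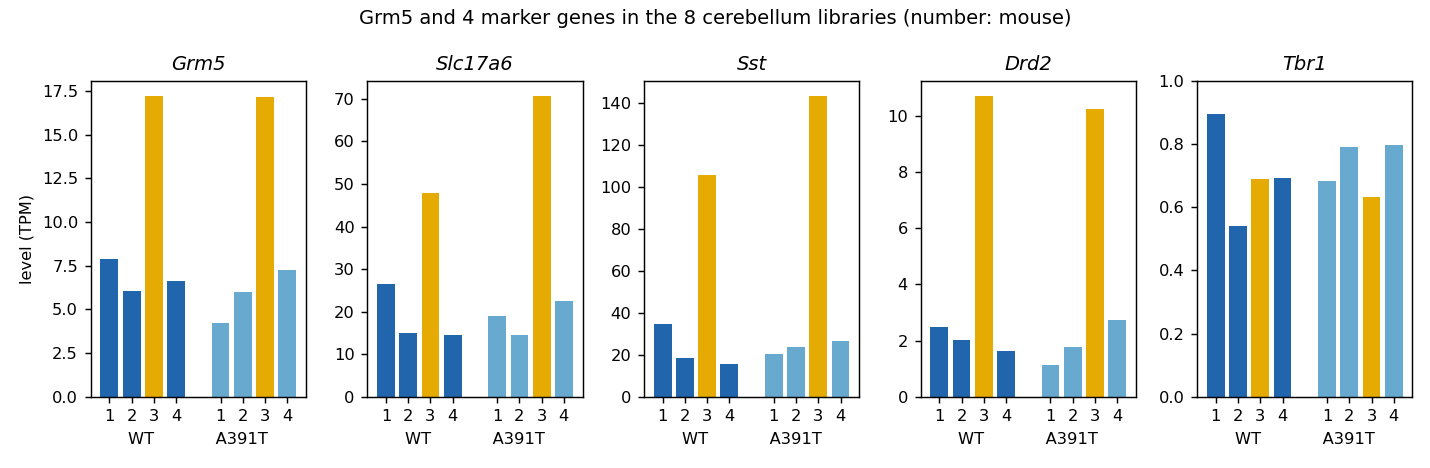
Level in TPM of Grm5 and of 4 marker genes in the 8 cerebellum libraries, 1 bar a library, with mouse 3 of either genotype in yellow and the other wild-type and A391T mice in dark and light blue. Grm5, Slc17a6, Sst and Drd2 were highest in the 2 yellow bars, while Tbr1, a cortical projection neuron gene, stayed between 0.540 and 0.894 TPM in all 8 libraries.

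Grm2 and Grm3, the Gi/o-coupled pair of group II, were lower in the cerebellum in both genotypes. Grm2 is a short gene of 11.6 kb (NCBIM37, chr9:106546868-106558440, minus strand), and Grm3 spans 240.1 kb (chr5:9485236-9725352, minus strand). Their promoters are printed as those of the group II pair. The promoters run from 250 bases before to 50 bases after the start of transcription (RefSeq, GRCm38.p6, minus strand, chr9:106656060-106656359 for Grm2 and chr5:9725303-9725602 for Grm3). Capitals mark the GC box GGGCGG, searched on both strands, with overlapping matches joined:
Grm2: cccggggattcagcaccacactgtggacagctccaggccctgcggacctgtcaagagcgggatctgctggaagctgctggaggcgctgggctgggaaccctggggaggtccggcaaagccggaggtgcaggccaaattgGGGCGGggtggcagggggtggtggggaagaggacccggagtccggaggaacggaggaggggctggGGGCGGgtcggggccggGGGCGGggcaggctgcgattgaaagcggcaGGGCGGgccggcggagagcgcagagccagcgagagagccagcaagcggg
Grm3: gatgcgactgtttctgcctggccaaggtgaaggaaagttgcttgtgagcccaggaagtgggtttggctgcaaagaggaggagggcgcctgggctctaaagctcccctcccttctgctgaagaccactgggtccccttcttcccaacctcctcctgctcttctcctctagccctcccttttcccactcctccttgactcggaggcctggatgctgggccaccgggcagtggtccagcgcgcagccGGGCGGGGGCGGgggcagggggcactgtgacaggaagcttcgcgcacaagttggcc
The Grm2 promoter held 4 GC boxes and 22 CpG, and the Grm3 promoter 2 GC boxes and 11 CpG. A GC box was present in 35.7% of 32851 mouse promoters of that length, and the median promoter held 7 CpG. The letters TGACGTCA (the cyclic AMP response element, in 1.8% of promoters), CAGATG (an E-box, in 17.2%) and the letters of the MEF2 site (in 3.7%), also searched on both strands, were not in either window. Promoters of the same table matched 4 of 6 receptor genes, Grm2, Grm3, Grm7 and Grm8.

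Grm2 stood at 88.0, 87.3, 74.3 and 73.5 TPM in the cortex of wild-type mice 1 to 4 and at 35.6, 41.2, 45.6 and 39.2 TPM in their cerebellum. In A391T mice it stood at 81.8, 92.4, 88.7 and 75.2 TPM in the cortex and at 26.7, 35.9, 33.7 and 37.0 TPM in the cerebellum. The lowest cortex library was above the highest cerebellum library in each genotype. The log2 fold change was -1.15 (SE 0.09, edgeR adjusted p = 6.0e-07) in wild-type and -1.45 (SE 0.09, edgeR adjusted p = 3.9e-07) in A391T mice. The wild-type value was the closest of the 6 to the 2-fold line: its 95% interval ran from -1.35 to -0.95, a test against a 2-fold change gave an edgeR adjusted p of 0.089, and with only the 2 wild-type mice whose names matched the value was -0.97.

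Grm3 stood at 79.9, 98.0, 94.0 and 71.3 TPM in wild-type cortex and at 24.8, 24.8, 30.0 and 28.7 TPM in wild-type cerebellum. The A391T libraries held 91.9, 93.4, 94.0 and 84.3 TPM in the cortex and 14.5, 24.2, 28.5 and 31.3 TPM in the cerebellum. The value of 14.5 TPM belonged to A391T mouse 1, the library with the low granule cell and astrocyte markers; the part of those markers was not tested. The 7 astrocyte markers, summed, ran from 2533 to 2790 TPM in wild-type cortex and from 4364 to 4746 TPM in wild-type cerebellum. Of the 7, 3 were called higher there and 1 lower. Much of the rise in the sum lay in Aldoc, at a mean of 1178 TPM in wild-type cortex and 2930 TPM in wild-type cerebellum. The lower marker was Slc1a2, at 629 and 167 TPM. The log2 fold change of Grm3 was -1.82 (SE 0.10, edgeR adjusted p = 2.8e-08) in wild-type mice. In A391T mice its 95% interval ran from -2.39 to -1.61 (SE 0.17, edgeR adjusted p = 4.2e-06), and the log2 fold change was -1.83 without that library.

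The balance within the pair also shifted. The ratio of Grm3 to Grm2 was 0.909 to 1.27 in the 4 wild-type cortex libraries and 0.602 to 0.734 in the 4 wild-type cerebellum libraries. In A391T mice it was 1.01 to 1.12 and 0.545 to 0.847. The ranges did not overlap in either genotype (two-sided exact permutation test, p = 0.029 in each, the smallest p that 4 against 4 libraries allow). The test did not use the pairing of the regions by mouse. The mean difference of the log2 ratio was -0.66 in wild-type and -0.59 in A391T mice.

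Grm4 was the group III gene with the highest level in the cerebellum (NCBIM37, chr17:27559332-27650286, minus strand). It stood at 24.6, 27.5, 28.4 and 17.9 TPM in the cortex of wild-type mice 1 to 4, and at 378, 377, 532 and 553 TPM in their cerebellum. In A391T mice it stood at 26.6, 25.3, 17.7 and 25.5 TPM in the cortex and at 282, 422, 326 and 418 TPM in the cerebellum. Every cerebellum library was over the highest cortex library by a wide margin. The log2 fold change was 4.07 (SE 0.17, 95% interval 3.69 to 4.45, edgeR adjusted p = 3.2e-09) in wild-type and 3.82 (SE 0.17, edgeR adjusted p = 2.9e-08) in A391T mice.

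In the cortex, the library with the lowest Grm4 value also stood apart in genes of other cells. The cortex library of A391T mouse 3, at 17.7 TPM, had the lowest level among 8 cortex libraries of 7 of 7 striatal markers (summed 365 TPM, against 921 to 1357 TPM in the others). The next lowest, wild-type mouse 4 at 17.9 TPM, had the second lowest sum of the 7, 921 TPM, but A391T mouse 2, with a near sum of 936 TPM, had Grm4 at 25.3 TPM. Drd2 and Adora2a, which mark striatal projection neurons, were at 8.50 and 12.1 TPM in A391T mouse 3 against 41.3 to 69.3 and 52.3 to 85.7 TPM in the other cortex libraries. A391T mouse 3 was also the highest of the 8 cortex libraries for 5 of 5 oligodendrocyte, 4 of 7 astrocyte and 4 of 5 microglia markers. The part of these markers in the cortical Grm4 level was not tested. The A391T region difference of Grm4 was 3.69 without that library.

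Grm7 and Grm8, the other group III members, went the way of group II. Grm7 (NCBIM37, chr6:110595575-111517224, plus strand) stood at 33.0, 39.4, 37.7 and 31.4 TPM in wild-type cortex and at 15.4, 13.9, 17.6 and 15.2 TPM in wild-type cerebellum. Its A391T values were 40.1, 37.5, 35.1 and 34.7 TPM in the cortex and 9.73, 12.8, 16.4 and 15.1 TPM in the cerebellum. The regions did not overlap, and the log2 fold change was -1.34 (SE 0.09, edgeR adjusted p = 1.0e-07) in wild-type and -1.56 (SE 0.13, edgeR adjusted p = 2.5e-06) in A391T mice. Reads were counted without regard to strand, and 2.21% of the exon bases of Grm7 are shared with a gene on the other strand.

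Grm8 (NCBIM37, chr6:27225121-28085178, minus strand) was the lowest of the 6 in all 4 groups. It stood at 8.57, 9.89, 9.92 and 8.19 TPM in wild-type cortex and at 4.34, 4.30, 4.23 and 3.99 TPM in wild-type cerebellum. Its A391T values were 9.95, 9.54, 10.9 and 8.33 TPM in the cortex and 3.33, 4.15, 4.32 and 4.07 TPM in the cerebellum. These levels still rested on 211 to 666 reads in a library. The log2 fold change was -1.27 (SE 0.08, edgeR adjusted p = 1.5e-07) in wild-type and -1.39 (SE 0.10, edgeR adjusted p = 8.9e-07) in A391T mice.

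**Figure D3:**
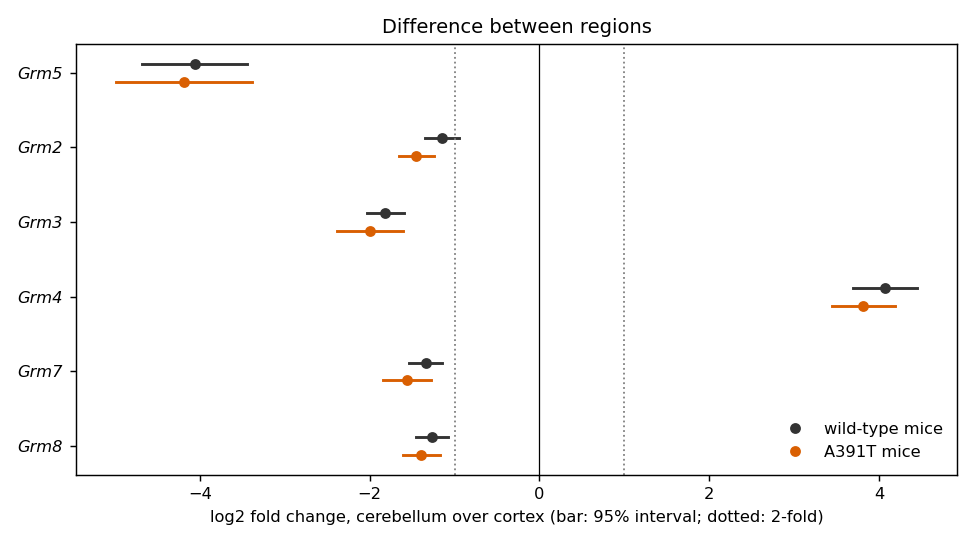
Log2 fold change, cerebellum over cortex, of each receptor gene in wild-type (dark) and A391T (orange) mice, with 95% intervals from 4 against 4 libraries and dotted lines at a 2-fold change. Grm5 and Grm4 lay at -4.06 and 4.07 in wild-type mice, the other 4 between -1.82 and -1.15, and the wild-type interval of Grm2 crossed the 2-fold line.

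Because the genes moved apart, the make-up of the receptor transcripts differed between regions. In wild-type cortex, Grm5 made up 37.6% ± 1.70 (SD, n = 4) of the summed TPM of the 6 genes, Grm2 and Grm3 together 44.2% ± 1.94, and the 3 group III genes 18.3% ± 0.453. In wild-type cerebellum, Grm4 made up 82.4% ± 2.18, Grm2 and Grm3 together 12.3% ± 1.56, and Grm5 1.67% ± 0.717. The summed level was 378 ± 41.5 TPM in wild-type cortex and 556 ± 104 TPM in wild-type cerebellum. In A391T mice the Grm5 share was 37.1% ± 1.64 and 1.96% ± 1.38 in the cortex and cerebellum. Within group III, the mean ratio of Grm7 to Grm4 was 1.46 in wild-type cortex and 0.0342 in wild-type cerebellum. These shares and ratios follow from the levels above and are a description.

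**Figure D4:**
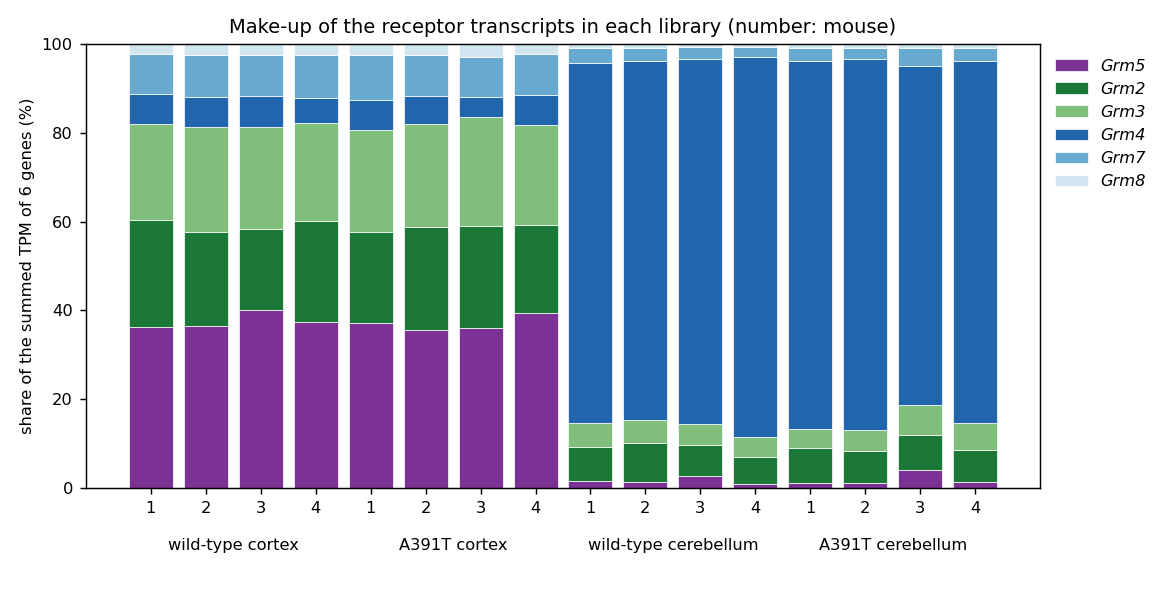
Share of each receptor gene in the summed TPM of the 6 genes (%), 1 bar a library, numbered by mouse within each group. Grm5 (purple) and the group II genes (green) filled most of each cortex bar, and Grm4 (dark blue) took 76.5% to 85.5% of each cerebellum bar.

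In the order of mean levels, wild-type cortex ran Grm5, Grm3, Grm2, Grm7, Grm4, Grm8, and the neighbours Grm3 and Grm2 did not differ beyond their spread, being in that order in 2 of 4 libraries. Wild-type cerebellum ran Grm4, Grm2, Grm3, Grm7, Grm5, Grm8, and the ranges of the neighbours Grm7 and Grm5 overlapped. The A391T groups had the same orders of means, with overlapping ranges for Grm3 and Grm2 in the cortex and for all neighbours after Grm4 in the cerebellum. The first place of Grm5 in the cortex depended on gene length: the deposited table gives Grm5 4706 bases, while all exons of its annotated transcripts cover 8072 bases. With the latter lengths, an alternative chosen after seeing the data, wild-type cortex held Grm3 at 83.3 ± 12.1, Grm5 at 80.5 ± 10.5 and Grm2 at 78.4 ± 7.70 TPM (SD, n = 4), the ranges of the 3 overlapped, and the Grm5 share was 26.0% ± 1.41 in the cortex and 0.942% ± 0.408 in the cerebellum. Fold changes of a gene between regions do not depend on its length.

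Grm6, the group III receptor of retinal ON bipolar cells and not one of these 6, had 0 to 2 reads in each of the 16 libraries.

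The genes around the receptors were taken from lists of transporters, G protein partners, scaffolds and regulators, of which 54 of 55 genes were found and tested. In wild-type mice 17 were lower and 11 higher in the cerebellum by the same criteria, which is to be read beside 14.2% and 10.5% of all genes tested, and the median log2 fold change was -0.17, beside 0.02 over all genes. The counts of the single lists below have the same background. Among the 14 scaffolds and synaptic partners, 7 were lower and 1 was higher. Homer1, a scaffold that ties group I receptors to the postsynaptic density, had a log2 fold change of -2.78, while its relative Homer3 had 5.51. Elfn1, a postsynaptic protein that binds group III receptors across the synapse, had -3.93, and Grasp (tamalin), a group I scaffold, -3.40.

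Of 10 genes of the Gq arm, 2 were lower and 5 higher in wild-type cerebellum. The higher ones included Plcb3 (2.01 on the log2 scale) and Plcb4 (2.01), phospholipases of this arm, and Itpr1 (1.88), the calcium channel they open. Of 13 genes of the Gi/o arm, 3 were lower and 2 higher. Rgs4, which ends G protein signals, had a log2 fold change of -4.78 and its relative Rgs8 3.45, while the adenylyl cyclase genes Adcy5 and Adcy1 had -2.01 and 1.01. Itpr1, and Slc1a6 of the next list, are also among the 6 Purkinje cell markers.

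Of 9 genes of glutamate release and uptake, 5 were lower and 2 higher in wild-type cerebellum. Slc17a8, a vesicular transporter of scattered neurons, had a log2 fold change of -5.14, and Slc1a6, the uptake carrier of Purkinje cells, 4.53. The uptake carriers Slc1a2 (astrocytes) and Slc1a1 (neurons) had -2.06 and -1.72. Slc1a3, the other astrocyte carrier, was one of the 2 higher genes at 1.13, and was named after its value was seen. Slc1a2 and Slc1a3 are also among the astrocyte markers given above. Of 4 genes that make or cleave N-acetylaspartylglutamate, a peptide agonist of Grm3, 1 passed, the synthetase gene Rimkla at 1.37. Of 4 kinase and arrestin genes that desensitize the receptors, 0 passed both criteria by edgeR and 0 by DESeq2, while 1 had an unadjusted p under 0.05 (Adrbk2, 0.27, edgeR adjusted p = 0.0055) and missed the 2-fold criterion alone. In A391T mice, 19 of the 54 genes were lower and 11 higher, beside 14.9% and 9.8% of all genes tested.

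For each receptor, the genes with the most similar pattern were found by Pearson's r of log2 CPM over the 16 libraries. CPM here is the count per library total, with the totals scaled as in the tests. The most similar genes were Rasgrf2 (r = 0.998), Enc1 and Pak6 for Grm5, Ulk2 (0.991), Zdhhc8 and Nckap1 for Grm2, Mkl2 (0.998), Arhgap32 and Csmd1 for Grm3, Reln (0.997), Kcnd2 and Tspan9 for Grm4, Robo2 (0.997), Astn1 and Magi3 for Grm7, and Scube1 (0.994), Adcy2 and Kalrn for Grm8. The libraries form 2 regional clusters that set these values, and 1468 to 1850 of 16588 genes had r over 0.95 with each receptor. Rasgrf2 is also in the list of cortical projection neuron markers.

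The second question was whether the receptors differ between A391T and wild-type mice. None of the 6 passed in either region. In the cortex, where 0.0126% of 15815 genes passed at an edgeR adjusted p under 0.05, 0 of 6 receptors passed by edgeR or DESeq2 and 0 had an unadjusted p under 0.05. The 6 log2 fold changes, A391T over wild type, lay between -0.06 (Grm4) and 0.06 (Grm3), each with an edgeR adjusted p of 1.00. The widest 95% interval was that of Grm4, from -0.38 to 0.26, and the narrowest that of Grm7, from -0.13 to 0.20. Without the cortex library of wild-type mouse 4, the values were -0.18 for Grm4, -0.049 for Grm5, -0.0035 for Grm3, -0.0022 for Grm7, 0.013 for Grm2 and 0.022 for Grm8. Grm4 turned to 0.06 without the cortex library of A391T mouse 3 and to 0.21 with the library names of the table. With those names the 6 values lay between 0.003 (Grm5) and 0.21 (Grm4), and with the 4 mice whose names matched (2 a genotype) between 0.01 (Grm5) and 0.21 (Grm2).

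In the cerebellum all 6 log2 fold changes were below 0, but they could not be told from the spread between libraries. There 0% of 15668 genes passed at an edgeR adjusted p under 0.05, with 1340 at an unadjusted p under 0.05 and 30 passing by DESeq2. Of the receptors, 0 passed by either tool, and 1, Grm2, had an unadjusted p under 0.05. Grm2 was at 40.4 ± 4.16 TPM in wild-type and 33.3 ± 4.64 TPM in A391T cerebellum (SD, n = 4), a log2 fold change of -0.23 (SE 0.10, 95% interval -0.45 to -0.01, edgeR unadjusted p = 0.042, adjusted p = 0.53), and the ranges, 35.6 to 45.6 and 26.7 to 37.0 TPM, overlapped. Grm4 was at 460 ± 95.5 and 362 ± 69.2 TPM (SD, n = 4), a log2 fold change of -0.29 (SE 0.15, 95% interval -0.63 to 0.04, edgeR adjusted p = 0.53). The other 4 lay between -0.15 and -0.04.

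The cerebellum library of A391T mouse 1 was the lowest of 8 for each of the 6 receptors. Its markers and its difference from its group over all genes are given above. Without it the log2 fold changes were -0.23 for Grm4, -0.17 for Grm2, -0.054 for Grm7, 0.0022 for Grm8, 0.063 for Grm3 and 0.12 for Grm5, so that 3 of 6 were no longer below 0, and 0 receptors passed. Grm5 had the widest interval, from -1.09 to 0.90, with the high libraries of mouse 3 on both sides. With the names of the table both high libraries counted as wild-type, and its value went from -0.09 to -0.95 (edgeR adjusted p = 0.55). Without either library it was -0.20. The other values with the names of the table were -0.37 for Grm3, -0.26 for Grm4, -0.26 for Grm7, -0.10 for Grm2 and 0.013 for Grm8. With the matching mice alone, the values were further from 0 for 5 of 6 receptors: -1.12 for Grm5, -0.52 for Grm4, -0.50 for Grm3, -0.43 for Grm7, -0.33 for Grm2 and -0.02 for Grm8, with edgeR adjusted p of 0.47 to 0.95. The matching mice are wild-type mice 3 and 4 and A391T mice 1 and 2, so that they include wild-type mouse 3, with high Grm5, and A391T mouse 1, the lowest of 8 for each receptor. The size of these differences therefore differed with the names used.

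**Figure D5:**
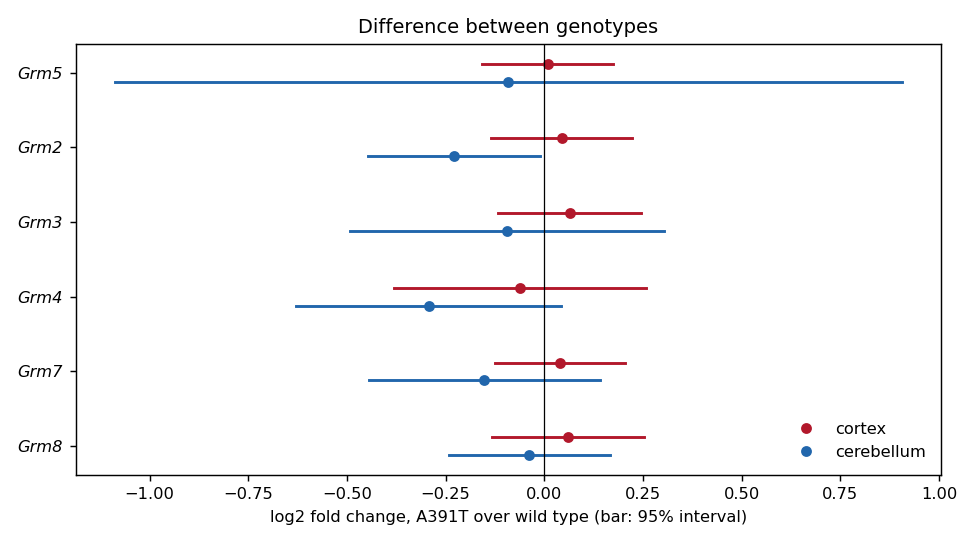
Log2 fold change, A391T over wild type, of each receptor gene in the cortex (red) and cerebellum (blue), with 95% intervals from 4 against 4 libraries. All intervals cover 0 except that of Grm2 in the cerebellum (-0.45 to -0.01), which did not pass after adjustment, and Grm5 in the cerebellum has the widest.

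The last question was whether the regional difference itself differs between genotypes. The difference of the 2 regional log2 fold changes, A391T minus wild type, lay between -0.28 (Grm2) and -0.11 (Grm8) and was below 0 for all 6. Without the cerebellum library of A391T mouse 1 it was 0.097 for Grm5, -0.0061 for Grm3, -0.062 for Grm8, -0.099 for Grm7, -0.17 for Grm4 and -0.22 for Grm2. Without the cortex library of wild-type mouse 4 it was -0.050 for Grm5, -0.064 for Grm8, -0.097 for Grm3, -0.12 for Grm4, -0.15 for Grm7 and -0.24 for Grm2. For Grm2 it was -0.28 (SE 0.13, 95% interval -0.56 to -0.005, edgeR unadjusted p = 0.046, adjusted p = 0.77). Of 16589 genes, 0% passed at an edgeR adjusted p under 0.05, with 805 at an unadjusted p under 0.05, and 1 passed by DESeq2. Of the receptors, 0 passed by either tool and 1, Grm2, had an unadjusted p under 0.05. With the names of the table this difference was -0.96 for Grm5, -0.48 for Grm4, -0.46 for Grm3, -0.37 for Grm7, -0.27 for Grm2 and -0.01 for Grm8 (edgeR adjusted p of 0.50 to 0.97). With the matching mice alone it was -1.15, -0.68, -0.66, -0.59, -0.56 and -0.12 in the same order (edgeR adjusted p of 0.54 to 0.81). The 4 cerebellum libraries of each genotype enter both this test and the one above. Of the 54 surrounding genes (53 tested in the cerebellum), 0 passed by edgeR in the cortex, the cerebellum or this test, with 5, 4 and 1 at an unadjusted p under 0.05, and DESeq2 called 0, 1 and 0. The gene called by DESeq2 in the cerebellum was Folh1, which encodes the peptidase that cleaves N-acetylaspartylglutamate and was named after its value was seen; its log2 fold change was -0.45 (SE 0.10, edgeR unadjusted p = 0.00084, adjusted p = 0.53).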

How the data were processed

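RNA was purified from snap-frozen tissue, and polyA-selected directional libraries were sequenced as 50 bp reads. Per the labels and methods, the authors aligned these with STAR against mm9 and ran HTSeq on Ensembl genes, without regard to strand; the deposited counts are raw whole numbers. The deposited RPKM table, made by the authors with edgeR, was used for gene names and lengths and to compare library names only. Between 10.2% and 13.2% of the reads on the count lists fell on no gene.

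Groups came from the sample titles. Lowly counted genes were removed with filterByExpr, libraries were scaled by TMM, and edgeR 4.0.16 (R 4.3.3) quasi-likelihood tests were run over all genes with Benjamini-Hochberg adjustment. Regions were compared within a genotype (adjusted p under 0.05 and at least a 2-fold change), genotypes within a region, and their interaction over 16 libraries (adjusted p under 0.05). The wild-type region test and the cortex genotype test were checked on simulated counts with planted changes. The other tests were not checked in that way. TPM used the lengths of the RPKM table. Ratios were compared by exact permutation tests (scipy 1.17.1). DESeq2 1.42.0, other scalings, filters, names and left-out libraries were alternatives.

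The named genes were the 6 receptors, up to 4 genes a list with the largest absolute change past the criteria in wild-type mice, 3 genes most like each receptor, and Slc39a8; some genes of these lists are not reported here. The members and lists were chosen with earlier results of these data known. Positions are from GENCODE M1 (NCBIM37, mm9) and promoters from RefSeq (GRCm38.p6). The mouse numbers in the titles pair the 2 regions of an animal, although deviations from the group means were hardly correlated within mice (r -0.091 to 0.119 in wild-type and -0.099 to 0.022 in A391T mice). P-values measure the spread between mice of 1 genotype.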

Additional observations from a re-analysis of the deposited data

Results flagged for a closer look

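In 2 of 24 sets of 4 libraries (6 genes in 4 groups), 1 library lay farther from the others than Dixon's 95% critical value (gap to the nearest library over the range), where chance gives about 1 in 20. Grm5 in wild-type cerebellum was 17.2 TPM in mouse 3, with a ratio of 0.835, and that library also had the higher Slc17a6, Sst, Vip and Drd2 levels given above. Grm4 in A391T cortex was 17.7 TPM in mouse 3, with a ratio of 0.857, and that library had the lowest level of 7 of 7 striatal markers and the highest of 5 of 5 oligodendrocyte markers in the cortex. The part of these markers in either value was not tested.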

How the results depend on the processing

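In the region comparisons, 120 of 120 alternative values in A391T and 118 of 120 in wild-type mice kept their direction and their side of the criteria. Both exceptions were Grm2 in wild-type mice: the test against a 2-fold change (-1.15, edgeR adjusted p = 0.089) and the mice with matching names (-0.97) left 5 of 6 receptors called. With mouse as a replicate block (paired regions), 6 of 6 receptors were called in each genotype, 0 in the interaction, and Grm5 was at -4.16 in wild-type and -4.35 in A391T mice; the block changed no call. Scaling by library totals moved the median log2 fold change of all genes from 0.02 to 0.14 in wild-type and from 0.03 to 0.16 in A391T mice, and no receptor changed direction. No receptor passed in a genotype or interaction test under any alternative run, but directions near 0 turned, and the cause was not tested. In the cortex, Grm4 turned to 0.21 with the names of the table and to 0.15 with matching mice, and leaving out 1 library gave -0.18 to 0.060 for Grm4, -0.049 to 0.067 for Grm5, -0.0068 to 0.094 for Grm2, -0.0035 to 0.13 for Grm3 and -0.0088 to 0.087 for Grm7. In the cerebellum, Grm8 turned to 0.013 with the names of the table, and leaving out 1 library gave -0.65 to 0.35 for Grm5, -0.22 to 0.063 for Grm3 and -0.080 to 0.0022 for Grm8. Without 1 library the interaction ranged from -0.67 to 0.34 for Grm5, -0.30 to -0.0061 for Grm3, -0.36 to -0.12 for Grm4 and -0.30 to -0.099 for Grm7. Without cerebellum mouse 3 of either genotype, added after seeing the data, the cerebellum genotype values were -0.17 for Grm2, -0.17 for Grm4, -0.12 for Grm3, -0.19 for Grm7, -0.075 for Grm8 and -0.20 for Grm5. Levels on a per-length scale depend on the lengths used: with exon union lengths Grm5 was 80.5 TPM in wild-type cortex in place of 142 TPM. With 4 libraries a group, the 95% intervals of the genotype differences given above bound what could be seen.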
